A study of Homo sapiens with 18 samples.

Results

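Gene expression after 24 h of erastin was compared with gene expression after 4 h of erastin in HT-29, an established human colon adenocarcinoma line. The 6 arrays of the comparison, 3 at each time, were chosen by their titles from 18 arrays. The series also holds 3 untreated HT-29 arrays and the same 3 groups of 3 arrays in HCT116, another established human colon cancer line. Both sides of the comparison received erastin at 2.5 µM, so a difference between them is a difference between an early and a late time of exposure. The methods give 3 independent experiments of growing cells for each group, and no genetic change was introduced. The untreated cells are described only as left untreated. Time-matched controls are described for the PCR measurements of the study. For the arrays a carrier control and a time of harvest of the untreated cells were not given in the sources used here, and the added hours of culture cannot be told apart from the added hours of erastin.

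Total RNA was hybridised to a whole-transcript oligonucleotide array. The comparison covered 35528 transcript clusters annotated to a single gene, out of 135750 features tested. Values are log2 signals, so a difference of 1 is a 2-fold change if the scale is exactly log2. Some deposited values lie above the usual top of the scanner's range on that scale, and folds given here carry that doubt. The median signal of an HT-29 array lay between 5.44 and 5.61, and arrays of a treated group correlated at 0.960 to 0.986 over the single-gene clusters. Apart from the marker lists below, a level of 1 gene on this scale was not set against that of another. The marker levels serve as a rough check only.

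Erastin blocks system xc-, the exchanger that brings cystine into the cell in return for glutamate. Cells short of cystine make less glutathione, the cofactor with which GPX4 clears lipid peroxides, and may die by ferroptosis. Shortage of amino acids also activates the kinase GCN2 and the transcription factor ATF4, whose targets make, import and charge amino acids and restrain MTORC1, the kinase complex that drives growth. Growing colon cancer cells need constant production of ribosomes, under MYC, and of DNA replication factors.

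The arrays were checked against markers of their label before any comparison. Epithelial markers were high in all 9 HT-29 arrays: EPCAM, a surface protein of epithelial cells, lay between 14.3 and 15.9, and KRT8, a simple-epithelium keratin, between 16.8 and 18.3. CDH1, of the same list, was lower, between 10.04 and 13.34. The HCT116 arrays lay between 14.4 and 15.4 for EPCAM and between 16.5 and 17.6 for KRT8, so these 2 markers do not tell the lines apart. Markers of intestinal differentiation separated the replicates. LYZ, which encodes lysozyme, read 16.95 and 17.48 in replicate 1 at 4 h and 24 h. In replicates 2 and 3 it read 10.12 and 10.78 at 4 h and 10.50 and 11.77 at 24 h, and the 9 HCT116 arrays lay between 5.54 and 6.13. Of 14 measured intestinal markers, 8 lay over 2 log2 units above every HCT116 array in each replicate 1 array, and 1, LYZ, did so in each replicate 2 or 3 array.

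Against the mean of the 9 HCT116 arrays, the replicate 1 mean was more than 2 log2 units higher for 222 single-gene clusters and as far lower for 0. The same counts were 3 higher and 2 lower for replicate 2, and 8 higher and 0 lower for replicate 3. Over the 222 clusters the median difference from HCT116 was 2.87 in replicate 1, 0.22 in replicate 2 and 0.41 in replicate 3. The arrays labelled HT-29 in replicates 2 and 3 were therefore close to HCT116 in the genes that set replicate 1 apart, and the label is used below only as a label. Results are given with all 3 replicates. Replicates 2 and 3 alone are given for the main counts, and for single genes only in part. Averaged over their lists, intestinal markers read 6.91 to 9.38 per array at 4 h and 6.86 to 8.82 at 24 h, while the epithelial list averaged 14.27 to 15.51 and 14.54 to 15.01. The mesenchymal, endothelial and leukocyte lists averaged at most 7.59 in any array of either time, and no marker list held a gene that passed a test below.

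**Figure D1:**
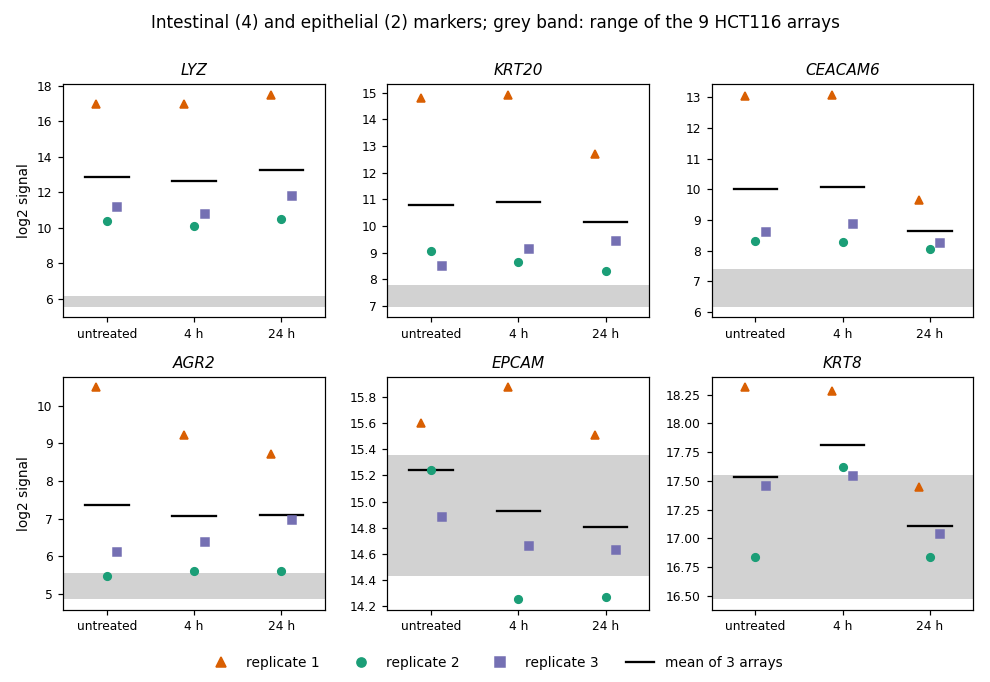
Log2 signal (y axis) of 4 intestinal and 2 epithelial markers in the untreated, 4 h and 24 h arrays labelled HT-29 (x axis); symbols are replicates, bars are means of 3 arrays and the grey band is the range of the 9 HCT116 arrays. Replicate 1 stands far above replicates 2 and 3 for LYZ, and its CEACAM6 signal is 13.1 at 4 h and 9.65 at 24 h.

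Across the single-gene clusters, 17 were called higher and 5 lower at 24 h than at 4 h at an adjusted p under 0.05 (limma, Benjamini-Hochberg over all 135750 features). These are 0.0478% and 0.0141% of the clusters tested. The called genes that rose included DDIT4, CHAC1, TRIB3, PCK2, PSAT1 and SLC1A4, which belong to the amino acid response, and CCNG2, BCL6 and TCP11L2, which are linked to growth arrest. DKK1, THBS1 and F3, secreted or surface proteins, fell, as did CDC25A, a phosphatase that opens S phase, and POLR1G, a subunit of RNA polymerase I. The smallest called difference was 1.76, and the median standard error of a difference was 0.29. Fewer cells with a transcript and less of it per cell cannot be told apart in RNA from whole cultures.

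The methods of the study define a differentially expressed transcript, or DET, by 2 thresholds: a fold that is 1.2 or more, and a p before adjustment that is no higher than 0.005. By that rule 336 clusters (0.946%) were higher and 246 (0.692%) lower at 24 h. The p threshold by itself would pass 178 of 35528 clusters with no difference between the times, so single DETs below carry more doubt than called genes. For 2031 clusters (5.72%) all 3 arrays at 24 h lay above all 3 at 4 h, and for 2154 (6.06%) all lay below. The word "rose" or "fell" is kept for called genes, and other genes are given by their values.

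All 22 called genes differed in the same direction in replicate 1 alone and in replicates 2 and 3 alone, and all 22 met the DET rule in the fit of replicates 2 and 3, where 9 stayed called. The 9 were DDIT4, GDF15, CHAC1, CCNG2, PCK2, SAT1, DKK1, THBS1 and F3. The other 13, TRIB3, SLC1A4, BCL6, PSAT1, CDC25A and POLR1G among them, lost the call in that fit. The arrays of these fits also made the calls, so the counts are a description. The number still called was 10, 9 and 11 without untreated replicate 1, 2 or 3, 15, 2 and 8 without the respective 4 h array, and 9, 4 and 5 without the respective 24 h array. DDIT4 and CHAC1 stayed called in all 9 of these fits, and POLR1G, PSAT1, RGS6 and DLGAP1-AS1 in none of them. In replicates 2 and 3 alone 515 clusters were higher and 159 lower by the DET rule. Replicate 1, which that fit did not use, moved the same way for 448 of the 515 and 135 of the 159, together 86.5%, against 57.1% of all 35528 clusters.

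**Figure D2:**
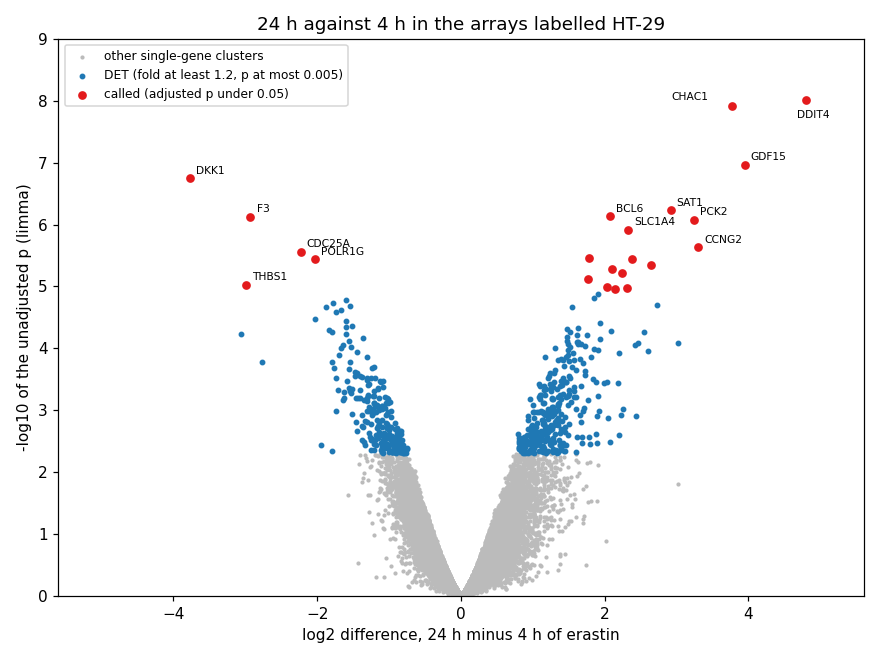
Each point is a single-gene cluster of the arrays labelled HT-29, with its log2 difference of 24 h minus 4 h on the x axis and -log10 of the unadjusted limma p on the y axis. Red points are the 22 called genes, 17 to the right and 5 to the left; blue points are other DETs. DDIT4 and CHAC1 are the highest points, and DKK1 is the highest on the left.

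Promoters of 6 genes that carry these results are printed here, each as the 250 bases before and 50 bases after the start site of the gene in RefSeq (GRCh38.p14), with letters of the searched motifs in capitals. They were chosen because each holds a motif. CHAC1 and ASNS, the latter a DET but not called, hold TGATGNAA (read on either strand), the composite element bound by C/EBP and ATF factors such as ATF4. F3 holds 2 copies of the AP-1 element TGANTCA, DKK1 and THBS1 hold the TEAD element GGAATG, and POLR1G holds CACGTG, the E-box bound by MYC and related factors. The windows are chr15:40953221-40953520 (CHAC1, plus strand), chr7:97872359-97872658 (ASNS, minus), chr1:94541710-94542009 (F3, minus), chr10:52314031-52314330 (DKK1, plus), chr15:39580829-39581128 (THBS1, plus) and chr19:45406394-45406693 (POLR1G, plus).
CHAC1: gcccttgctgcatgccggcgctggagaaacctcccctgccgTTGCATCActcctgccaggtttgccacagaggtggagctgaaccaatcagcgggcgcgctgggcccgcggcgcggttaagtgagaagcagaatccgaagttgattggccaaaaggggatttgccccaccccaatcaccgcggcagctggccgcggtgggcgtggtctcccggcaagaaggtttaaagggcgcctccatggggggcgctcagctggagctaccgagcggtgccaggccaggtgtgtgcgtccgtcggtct
ASNS: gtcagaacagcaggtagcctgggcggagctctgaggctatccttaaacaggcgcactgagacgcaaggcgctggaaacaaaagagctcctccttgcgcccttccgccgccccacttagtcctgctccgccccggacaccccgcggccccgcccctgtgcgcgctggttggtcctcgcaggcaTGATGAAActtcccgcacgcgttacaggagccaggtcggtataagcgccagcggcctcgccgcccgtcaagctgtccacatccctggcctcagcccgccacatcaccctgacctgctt
F3: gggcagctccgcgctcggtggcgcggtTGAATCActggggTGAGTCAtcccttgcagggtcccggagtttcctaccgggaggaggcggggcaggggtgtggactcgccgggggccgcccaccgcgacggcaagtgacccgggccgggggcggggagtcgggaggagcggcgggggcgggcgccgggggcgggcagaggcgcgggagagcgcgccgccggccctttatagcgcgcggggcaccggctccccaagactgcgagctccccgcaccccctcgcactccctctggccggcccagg
DKK1: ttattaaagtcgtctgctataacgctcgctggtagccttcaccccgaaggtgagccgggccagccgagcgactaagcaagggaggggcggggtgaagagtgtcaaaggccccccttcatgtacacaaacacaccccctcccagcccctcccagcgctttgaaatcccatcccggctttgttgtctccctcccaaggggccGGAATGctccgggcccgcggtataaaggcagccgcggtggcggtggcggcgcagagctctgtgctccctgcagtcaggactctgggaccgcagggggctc
THBS1: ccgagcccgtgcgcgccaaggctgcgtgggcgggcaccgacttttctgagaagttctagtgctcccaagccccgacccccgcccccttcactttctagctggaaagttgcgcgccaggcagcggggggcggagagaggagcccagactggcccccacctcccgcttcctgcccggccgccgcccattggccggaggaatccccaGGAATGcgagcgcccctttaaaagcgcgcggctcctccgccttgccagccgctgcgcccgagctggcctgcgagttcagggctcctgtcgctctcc
POLR1G: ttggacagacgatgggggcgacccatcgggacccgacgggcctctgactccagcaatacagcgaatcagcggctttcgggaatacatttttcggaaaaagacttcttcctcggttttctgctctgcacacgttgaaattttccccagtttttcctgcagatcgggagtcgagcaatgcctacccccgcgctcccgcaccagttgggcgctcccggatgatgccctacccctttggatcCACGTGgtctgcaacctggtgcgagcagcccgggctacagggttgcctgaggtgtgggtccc
The E-box of POLR1G begins 12 bases before the start site, the C/EBP-ATF element of ASNS 68 bases and that of CHAC1 209 bases before it. The TEAD element begins 46 bases before the start of THBS1 and 50 bases before that of DKK1, and the AP-1 elements of F3 begin 223 and 210 bases before its start.

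A promoter was found for 239 of the genes with higher DETs, 186 of those with lower DETs and 16464 of all genes with a single-gene cluster. The E-box was present in 35 of 186 promoters of lower DETs (18.8%) and 14 of 239 of higher DETs (5.86%), beside 8.52% of the 16464. The C/EBP-ATF element was present in 4.6% of higher and 2.15% of lower DETs, beside 2.81%. The FOXO element GTAAACA was present in 5.86% of higher and 1.61% of lower DETs, beside 2.81%. For AP-1 the shares were 5.02%, 6.99% and 6.35%, for TEAD 10.9%, 13.4% and 12.3%, and for the CArG box of SRF 1.26%, 0.538% and 1.18%. The C/EBP-ATF element was present in 2 of the 14 called higher genes with a promoter, CHAC1 and BCL6. Those of DDIT4, TRIB3, PCK2, PSAT1 and SLC1A4 held none. Both strands were searched, the 6 motifs overlap in no window printed here, and a match is a description of letters in the window.

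Among genes of the amino acid response, CHAC1, which encodes an enzyme that degrades glutathione, read 8.07, 7.68 and 8.16 in the 4 h arrays and 11.83, 11.57 and 11.84 in the 24 h arrays. The groups were far apart and the untreated arrays, at 8.17, 8.12 and 8.95, sat near the 4 h level. It rose by 3.78 ± 0.28 (SE), a 13.7-fold change (adjusted p = 0.000816, limma), and by the same 3.78 in replicates 2 and 3. Its highest adjusted p with an array left out was 0.015. TRIB3, a pseudokinase that restrains ATF4 signalling, read 8.53, 8.005 and 8.75 at 4 h and 10.60, 11.04 and 10.77 at 24 h. It rose by 2.38 ± 0.29 (limma adjusted p = 0.029) and reached an adjusted p of 0.20 without 24 h replicate 3. DDIT3, the transcription factor CHOP, differed by 1.56 and met the DET rule.

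ATF4 itself read 12.72, 12.89 and 13.09 at 4 h and 13.49, 13.90 and 14.16 at 24 h, and ATF3, a related stress factor, 7.98, 8.76 and 8.55 and then 9.19, 9.09 and 9.81. Neither pair of groups overlapped, and the differences were 0.95 ± 0.30 and 0.93 ± 0.28, which did not pass either rule (adjusted p = 0.61 and 0.59). ATF4 is controlled largely by translation, which an RNA array does not measure. Of 13 measured ATF4 network factors and stress sensors 3 were higher DETs, 2 of them called, and 0 lower, with a median difference of 0.54 beside -0.01 over all single-gene clusters. Endoplasmic reticulum chaperones and other genes of the unfolded protein response had 0 DETs among 20. Their median was -0.16, and it ranged from -0.31 without 4 h replicate 2 to -0.0011 without 4 h replicate 1.

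Of 15 measured enzymes that make amino acids, 4 were higher DETs, 2 of them called, and 0 lower, with a median of 0.62 and 3 negative differences. PCK2, the mitochondrial enzyme that makes phosphoenolpyruvate, read 5.79, 6.33 and 6.26 at 4 h and 8.50, 10.04 and 9.57 at 24 h. The untreated arrays, 6.35, 6.39 and 6.43, lay with the 4 h arrays. The rise was 3.24 ± 0.35 (adjusted p = 0.013), 3.51 in replicates 2 and 3, and its adjusted p was 0.12 without 24 h replicate 3. PSAT1, the transaminase of serine synthesis, rose by 1.76 ± 0.23 from 15.4 ± 0.0976 to 17.1 ± 0.25 (mean ± SD, n = 3; limma adjusted p = 0.042, 0.063 with a replicate block, and not called with any 1 array left out, such as 0.30 without 24 h replicate 3). PHGDH, which opens that pathway, differed by 2.60 ± 0.46 and ASNS, asparagine synthetase, by 2.73 ± 0.40. Their adjusted p values were 0.16 and 0.070 with 3 replicates, and 0.033 and 0.027 in replicates 2 and 3 alone. With the replicate number as a block both were called, with limma adjusted p of 0.0052 for PHGDH and 0.0056 for ASNS. ASNS read 12.67, 13.57 and 13.41 at 4 h and 15.10, 16.54 and 16.19 at 24 h, so replicate 1 was the lowest at both times. A second cluster of PHGDH differed by -0.08.

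Among 18 amino acid transporters 3 were higher DETs and 1 lower, with a median of 0.41. SLC1A4, a carrier of alanine, serine and cysteine, read 6.63, 7.03 and 7.33 at 4 h and 9.09, 9.43 and 9.45 at 24 h, and rose by 2.33 ± 0.26 (adjusted p = 0.017; 0.13 without 24 h replicate 3). SLC6A9, a glycine transporter, and SLC43A1, a carrier of large neutral amino acids, were the other higher DETs, and SLC43A1 was called with a replicate block (adjusted p = 0.048; 0.35 without it). SLC38A5, a glutamine and serine carrier, was lower by 1.79. Of 17 measured cytosolic tRNA synthetases, which charge tRNA with amino acids, 4 were higher DETs and 0 lower: SARS1 (1.91), CARS1 (1.55), AARS1 and GARS1 (1.24). The list's median was 0.60, and 0.40 without 4 h replicate 2.

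SLC7A11 is the subunit of system xc- that erastin acts on. It read 14.32, 9.85 and 10.57 at 4 h and 16.63, 12.80 and 14.38 at 24 h. Each replicate was higher at 24 h, by 2.31, 2.94 and 3.81, but replicate 1 at 4 h lay above replicate 2 at 24 h, so the groups overlapped. The difference of 3.02 ± 1.07 did not pass either rule with 3 replicates (adjusted p = 0.71), and in replicates 2 and 3 it was 3.38 and met the DET rule (adjusted p = 0.13). The untreated arrays read 12.94, 12.99 and 11.93, so replicates 2 and 3 were below them at 4 h. SLC7A11-AS1, an antisense RNA whose span overlaps the gene, differed by 2.07, and signals of overlapping genes may not be separate.

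Genes that restrain MTORC1, with stress hormones of the same response, held the 2 largest rises among the called genes. DDIT4, which encodes REDD1 and shuts MTORC1 down, read 8.86, 8.34 and 8.80 at 4 h and 13.10, 13.58 and 13.72 at 24 h. The untreated arrays read 9.40, 10.77 and 10.37, so every 4 h array was below and every 24 h array above them. It rose by 4.80 ± 0.34, a 27.8-fold change (adjusted p = 0.000816), and by 5.08 in replicates 2 and 3. GDF15, a stress hormone of the TGF-β family, read 6.67, 6.64 and 7.14 at 4 h and 10.11, 10.86 and 11.31 at 24 h, and rose by 3.95 ± 0.35 (adjusted p = 0.0049; 0.057 without 4 h replicate 2). MIR3189, a microRNA gene inside the span of GDF15, rose by 2.10, and the signals of the pair cannot be separated. SESN2 (1.47), a sensor of leucine that inhibits MTORC1, and FGF19 (1.51), an intestinal hormone, were higher DETs. Of 14 measured members 4 were higher DETs and 0 lower, with a median of 0.71.

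**Figure D3:**
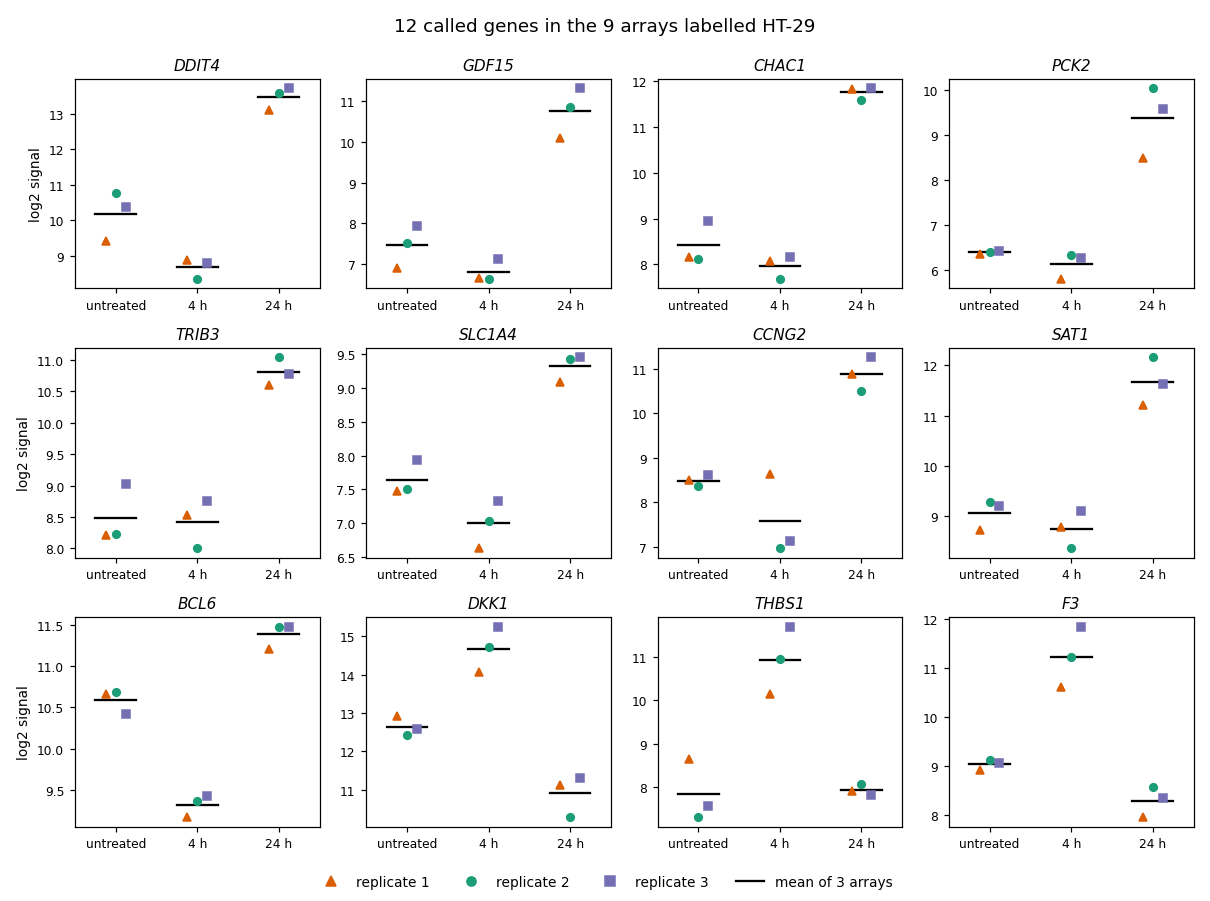
Log2 signal (y axis, a separate scale for each gene) of 12 called genes in the untreated, 4 h and 24 h arrays labelled HT-29 (x axis); symbols are replicates and bars are means of 3 arrays. The 4 h and 24 h arrays do not overlap for any of the 12 genes, which was a condition for naming them. BCL6 and DDIT4 dip at 4 h, and DKK1, THBS1 and F3 peak at 4 h.

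Genes linked to growth arrest and FOXO factors showed the highest list median, 1.18 over 23 measured members. Of these 12 were higher DETs, 4 of them called, and 0 were lower, and 22 of the 23 differences were positive. In replicates 2 and 3 alone the median was 1.32 with 13 higher DETs. The replicate medians were 0.91, 1.31 and 1.19. The list holds genes of mixed function that rise when cells stop dividing, and it was drawn up with earlier results of these data known.

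CCNG2, an atypical cyclin found in arrested cells, read 8.63, 6.97 and 7.12 at 4 h and 10.88, 10.49 and 11.26 at 24 h. It rose by 3.30 ± 0.39 (adjusted p = 0.024), 3.83 in replicates 2 and 3, and its adjusted p was 0.18 without 24 h replicate 3. Replicate 1 at 4 h was level with the untreated arrays (8.49, 8.36 and 8.61) and the other 4 h arrays were lower. A second cluster of the same gene differed by -0.31, so the clusters of CCNG2 disagree. BCL6, a transcriptional repressor, read 9.17, 9.36 and 9.42 at 4 h, 11.21, 11.48 and 11.47 at 24 h and 10.67, 10.68 and 10.42 untreated. Its 4 h arrays all lay below and its 24 h arrays all above the untreated ones, and it rose by 2.07 ± 0.22 (adjusted p = 0.013; 0.11 without 24 h replicate 3).

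SAT1, which acetylates spermidine and spermine for export, read 8.78, 8.37 and 9.10 at 4 h and 11.21, 12.16 and 11.63 at 24 h and rose by 2.92 ± 0.30 (adjusted p = 0.013; 0.11 without 24 h replicate 3). SRM, which makes spermidine, read 12.56, 12.30 and 13.09 at 4 h and 10.33, 11.82 and 11.67 at 24 h. Its difference of -1.38 met the DET rule with all replicates but not in replicates 2 and 3 (-0.95). TCP11L2 rose by 2.64 ± 0.34 (adjusted p = 0.033; 0.19 without 24 h replicate 2). PNRC1, a nuclear receptor coactivator, differed by 3.02 ± 0.52 (adjusted p = 0.14; 0.015 with a replicate block), with 4 h arrays at 7.76, 8.47 and 9.90 and 24 h arrays at 10.91, 12.29 and 11.98. KDM5B, KLF9, RBL2, ULK1 and 3 members of the YPEL family were the remaining higher DETs of the list. The cyclin-dependent kinase inhibitor CDKN1A differed by 1.03 ± 0.67 and TXNIP by 0.88 ± 1.29, with overlapping groups.

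The other called genes that rose belong to no single role. BNIP3L, a mitophagy receptor, rose by 2.31 ± 0.32, and PRSS8, an epithelial serine protease, by 2.25 ± 0.29. NIBAN1, a stress-responsive protein, rose by 2.14, RGS6, a regulator of G protein signalling, by 2.03 and DLGAP1-AS1, a long non-coding RNA, by 1.79. Their adjusted p values lay between 0.029 and 0.048, and all 5 lost the call with some array left out, with highest values of 0.19 to 0.32. With a replicate block NIBAN1 and RGS6 were not called (adjusted p = 0.064 and 0.053). A second cluster of RGS6 differed by 0.25.

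The called genes that fell had their highest mean signal at 4 h. DKK1, a secreted inhibitor of Wnt signalling, read 12.92, 12.41 and 12.57 untreated, 14.06, 14.72 and 15.25 at 4 h and 11.12, 10.28 and 11.31 at 24 h. Every 4 h array lay above and every 24 h array below the untreated arrays. It fell by 3.77 ± 0.35 from 4 h to 24 h, a 13.7-fold change (adjusted p = 0.0061; 0.057 without 4 h replicate 2), and by 4.19 in replicates 2 and 3. A second cluster of DKK1 differed by -0.41.

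THBS1, the matrix protein thrombospondin-1, read 8.65, 7.31 and 7.58 untreated, 10.16, 10.95 and 11.70 at 4 h and 7.92, 8.08 and 7.83 at 24 h. It fell by 2.99 ± 0.41 (adjusted p = 0.045; 0.30 without 24 h replicate 3 and 0.065 with a replicate block), back into the untreated range. F3, tissue factor, read 8.91, 9.12 and 9.06 untreated, 10.60, 11.22 and 11.84 at 4 h and 7.95, 8.58 and 8.34 at 24 h, and fell by 2.93 ± 0.31 (adjusted p = 0.013; 0.11 without 24 h replicate 3). The 24 h arrays of F3 all lay below the untreated ones. CCN1, a matrix-associated signalling protein, differed by -2.04 ± 0.32 and met the DET rule. THBS1, F3 and CCN1 are known targets of YAP and TEAD, and of 21 measured members of that list 3 were lower DETs and 0 higher, with a median of -0.48. The difference of 4 h from untreated was not tested here.

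FOSL1, an AP-1 subunit, read 13.04, 13.44 and 14.61 at 4 h and 9.72, 11.59 and 11.48 at 24 h and was a lower DET, as was FOSL2 (-1.21). EGR1, a zinc finger factor of the same immediate early class, went the other way, from 12.07, 11.09 and 12.05 at 4 h to 13.31, 13.83 and 13.87 at 24 h (difference 1.93 ± 0.30, adjusted p = 0.11). In the list of 25 immediate early factors 1 was a higher and 2 were lower DETs, and the median was 0.21. ETV1, ETV5 and DUSP6, outputs of ERK signalling, were higher DETs (1.84, 1.80 and 0.99), while EMP1 was lower by 1.63, and the median of that list of 25 was 0.01. SRF itself differed by -1.40 ± 0.41 without passing either rule. The 18 SRF and MRTF targets held 0 DETs, with a median of -0.52 and 15 negative differences.

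Ribosome production was the group with the lowest median. POLR1G fell by 2.03 ± 0.25 (adjusted p = 0.029; 0.20 without 24 h replicate 3). It was not called with any 1 array left out, nor in replicates 2 and 3 alone (limma adjusted p = 0.17). It read 10.40, 9.75 and 10.42 at 4 h, 8.24, 8.08 and 8.15 at 24 h, and 9.36, 8.98 and 9.35 untreated. The 24 h arrays lay close together and below all untreated arrays. Of 24 measured ribosome biogenesis genes, a list that does not hold POLR1G, 8 were lower DETs and 0 higher, 23 differences were negative and the median was -0.74. The lower DETs were GRWD1 (-1.76), NOP16 (-1.63), RRP9 (-1.30), PES1 (-1.26), RRS1 and RRP1 (-1.21 each), NOP14 (-1.03) and POLR1B (-0.89), which assemble pre-ribosomes or transcribe ribosomal DNA. In replicates 2 and 3 alone the median was -0.59 with 4 lower DETs, and it was -1.06 in replicate 1. Without 4 h replicate 2 the median was -0.97. MYC read 14.77, 15.95 and 16.37 at 4 h and 13.87, 14.78 and 14.66 at 24 h, a difference of -1.26 ± 0.39 that passed neither rule, although it met the DET rule in replicates 2 and 3.

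Other genes of ribosome assembly lie outside that list. MRTO4, a ribosome assembly factor, read 11.72, 11.63 and 12.56 at 4 h and 10.19, 10.22 and 9.87 at 24 h and was lower by 1.87 ± 0.28 (adjusted p = 0.070). IMP4 and PNO1, factors of the small subunit, were lower by 1.70 and 1.59. WDR77, a partner of the arginine methyltransferase PRMT5 and not counted here as a ribosome assembly gene, was lower by 1.60. IMP4, PNO1 and WDR77 were picked with their values in view. MRTO4, IMP4, PNO1, WDR77, POLR1G and SRM are among the 35 lower DETs whose window holds the E-box described above.

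S-phase genes differed less. CDC25A read 11.61, 11.66 and 12.16 at 4 h and 9.29, 9.62 and 9.82 at 24 h and fell by 2.23 ± 0.27 (adjusted p = 0.027; 0.12 in replicates 2 and 3, and 0.16 without 24 h replicate 2), with untreated arrays at 11.09, 11.11 and 11.69. CCNE1, the cyclin of the G1 to S transition, and GINS1, a subunit of the replicative helicase, were lower DETs, by 1.24 and 1.14. Of 32 replication genes 3 were lower DETs and 0 higher, 30 differences were negative and the median was -0.44. The 25 mitosis genes held 0 DETs with a median of 0.24, which was -0.29 in replicate 1 and 0.16 and 0.40 in the others. The 17 histone genes held 0 DETs with a median of -0.12. Heat shock proteins and their co-chaperones had 2 lower DETs among 15, DNAJA1 (-1.31) and STIP1 (-0.85), with a median of -0.52.

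**Figure D4:**
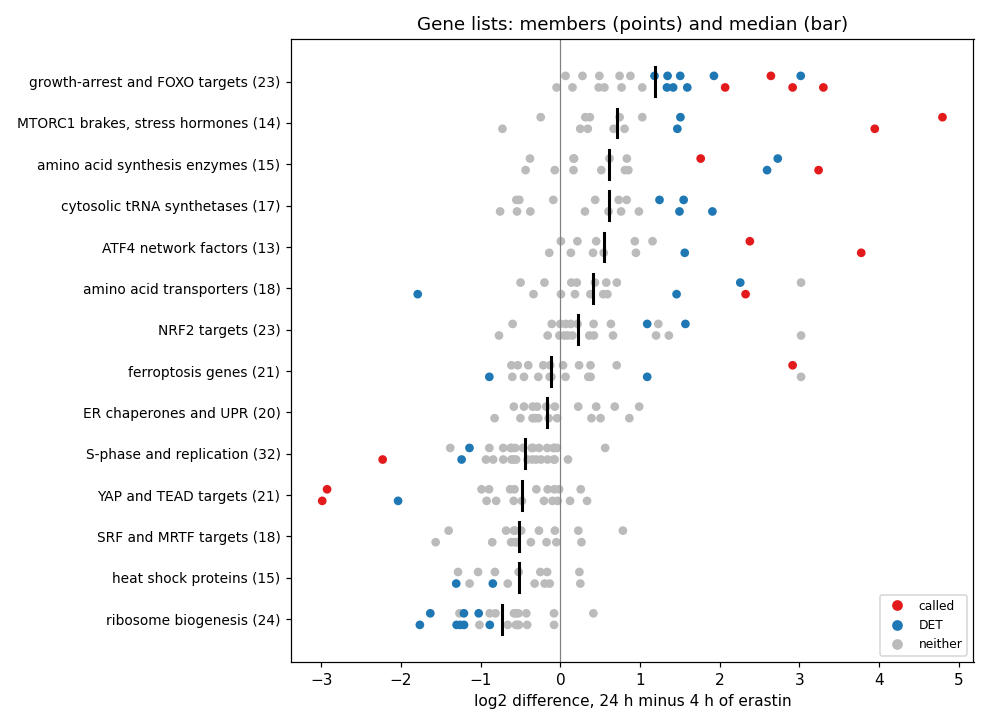
Log2 difference of 24 h minus 4 h (x axis) for the measured members of 14 gene lists (rows, with the number of members), coloured by call; the black bar is the list's median. The growth-arrest list has the highest median, 1.18, and the ribosome biogenesis list the lowest, -0.74.

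Ferroptosis and antioxidant genes held few DETs. Of 21 ferroptosis genes 2 were higher DETs (SAT1 and FTL, the ferritin light chain, 1.09) and 1 was lower (DHODH, -0.89, a mitochondrial enzyme that reduces ubiquinone), with a median of -0.11. GPX4 read 10.81, 11.10 and 11.87 at 4 h and 11.60, 12.01 and 12.30 at 24 h, a difference of 0.71 ± 0.31 with overlapping groups. Of 23 NRF2 targets 2 were higher DETs, NQO1 and FTL, with a median of 0.22 that was 0.55 without 4 h replicate 1. In replicates 2 and 3 alone 5 of the 23 were higher DETs, and the median was 0.44. NQO1, a quinone reductase, read 14.45, 13.82 and 14.31 at 4 h and 15.50, 15.83 and 15.97 at 24 h, and differed by 1.57 ± 0.29 (adjusted p = 0.18). HMOX1, heme oxygenase, differed by 1.36 ± 0.50 and its groups overlapped.

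Of the 17 genes that the study names, 6 were higher DETs and 0 lower, with a median of 0.95. The study chose some of them from these arrays and others for known roles in ferroptosis, so the count is not independent evidence of a direction. DDIT4, CHAC1 and PCK2 were called, and ASNS, FYN and NQO1 were DETs. FYN, a kinase of the Src family, read 8.72, 8.66 and 8.73 at 4 h and 9.98, 10.48 and 10.51 at 24 h, a difference of 1.62 ± 0.26. At the cluster with the highest signal for each gene, the lipoxygenases ALOX15 and ALOX5 and the transporters ABCB6 and ABCC1 differed by -0.21 to 0.05, less than their standard errors of 0.24 to 0.33.

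The same contrast in HCT116 shares no array with the one above. There 77 single-gene clusters (0.217%) were called and 1253 (3.53%) met the DET rule. All 22 called genes differed in the same direction in HCT116 and met the DET rule there, and 11 of them were called. Of the 582 DETs 572 (98.3%) had the same sign in HCT116, beside 63.5% of all single-gene clusters, and 319 were DETs in the same direction, 54.8% of the list here and 25.5% of that of HCT116. As replicates 2 and 3 lie close to HCT116 in the markers above, the lines are not separate evidence, and the part of the cells' identity in these values was not tested.

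As replicates 2 and 3 lie close to HCT116, a test between the lines here is a test between labels. The difference between the labels was tested as an interaction over all 18 arrays. It was called for 0 features (limma, smallest adjusted p = 0.24, and 0.9999 among single-gene clusters). An unadjusted limma p under 0.05 was found for 5710 of 135750 features and 1032 of 35528 single-gene clusters. Both counts are lower than that threshold would pass on average with no difference between the lines. The 22 genes were chosen for their difference in the arrays labelled HT-29, which favours a larger size there, so the values that follow for called genes are a description. For DDIT4 it was 4.80 against 3.62, an excess of 1.18 with a 95% interval of 0.25 to 2.11, and for GDF15 3.95 against 2.95, an excess of 1.00 with an interval of 0.065 to 1.93 (adjusted p = 1.00 for both). For CHAC1 the excess was 0.21 with an interval of -0.60 to 1.02, and for ASNS -0.06 with -1.06 to 0.94. EGR1, a DET that was not called, differed by 1.93 here and by 0.81 in HCT116, an excess of 1.13 with an interval of 0.17 to 2.08. These intervals are not adjusted for the number of features tested. The adjusted p of the difference for EGR1 was at least 0.9999 (limma), so its value is a description too. The median standard error of such a difference was 0.37, and the intervals above are wide, so a call for 0 features does not show that the lines responded alike.

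**Figure D5:**
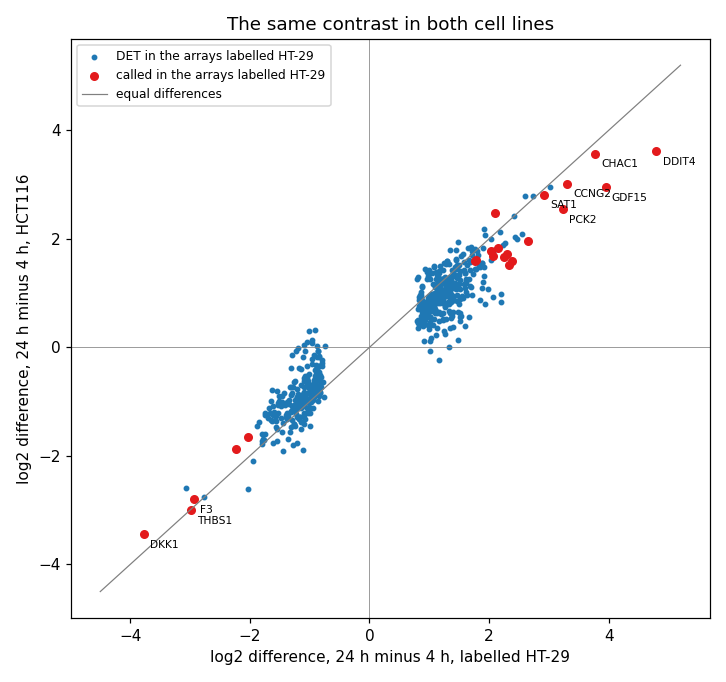
Log2 difference of 24 h minus 4 h in the arrays labelled HT-29 (x axis) and in HCT116 (y axis) for 582 DETs (blue) and the 22 called genes (red); the grey diagonal marks equal differences. 572 of the 582 points have the same sign in both, and DDIT4 lies furthest below the diagonal among the called genes.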

How the data were processed

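RNA from both cell lines was hybridised to 18 whole-transcript arrays, 3 in each of 6 groups. The values are normalized log2 signals that the authors deposited. Their methods name RMA in oligo and a vendor program, and which of them made this table is not given in the sources used here. Control probesets (2995 of 138745 features) were left out and 135750 features were tested. Of these, 35528 transcript clusters carry a single gene, 33578 genes in all; 1425 genes have several clusters and are given by the one with the highest mean signal. For 25516 gene identifiers a RefSeq entry was found.

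The 9 HT-29 arrays were fitted together in limma 3.58.1 (R 4.3.3) with lmFit and eBayes, and 24 h minus 4 h was the contrast, with 6 residual degrees of freedom. Adjusted p is Benjamini-Hochberg over all 135750 features and is called under 0.05. Blocked values are given where a replicate block changed a call of a gene in the text, as the evidence for pairing was mixed. The difference between cell lines is an interaction over 18 arrays. Scripts were tested on simulated data. Genes were drawn by a rule. It took the 15 higher and 15 lower single-gene clusters with the largest differences among those called, filled from DETs. For called genes and DETs alike it required groups that did not overlap. It added up to 4 DETs of each list, smallest p first, the genes the study names, and the markers. Any other gene was picked with its values in view. Not every gene that the rule gave is described above. Those left out include SEMA7A, IFFO2, AEN, TLCD3A and CPA4 among the 15 lower. CPA4 was a DET that differed by -3.06 (limma adjusted p = 0.12, and 0.023 with a replicate block). The members and the 35 gene lists (595 of 647 entries measured) were chosen with earlier results of these data known. Alternatives were other fits, normalizations, filters and array sets. The authors' methods describe 3 independent experiments; the number of arrays limits the precision. Promoters are from RefSeq (GRCh38.p14).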

Additional observations from a re-analysis of the deposited data

How the results depend on the processing

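The 22 calls depended on the arrays fitted. The methods name a Student's t-test with p values from permutations. That t-test on the 6 arrays, run here without permutations, called 0 after Benjamini-Hochberg adjustment (284 DETs). In the main limma fit 8307 of all features had an unadjusted p under 0.05. Limma on the 6 arrays alone called 3 and all 18 arrays together 100 (990 DETs, beside 582). Replicates 2 and 3 called 13, and adjustment over single-gene clusters only called 40. Leaving out 1 array gave 2 to 27 calls and 401 to 947 DETs, lowest for calls without 4 h replicate 2 and highest for both without 4 h replicate 1. Of the DETs 336 were higher and 246 lower, against 515 and 159 in replicates 2 and 3, 321 and 305 after quantile normalization, and 373 and 212 after median centring.

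A replicate block gave 27 calls, 18 of them among the 22, and 786 DETs. Same-numbered arrays of 4 h and 24 h deviated together at 0.67, 0.34 and 0.17 over single-gene clusters and at 0.50, 0.20 and 0.08 over all features. In both, 4 h replicate 3 correlated better with 24 h replicate 2 (0.45 and 0.26). Whether the numbers pair the arrays is thus not settled. The block lost THBS1, PSAT1, NIBAN1 and RGS6. The interaction with HCT116 called 0 features in all 22 alternatives, the block included. Among 83 named genes, none that was called or a DET changed direction in any alternative. Changes of sign in the others were not counted apart. Counted over genes and alternatives, 1414 kept their side of the threshold, 197 lost it and 47 gained it. The causes were not tested. The number of arrays limits precision.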

Other observations

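In replicate 1, 2 intestinal markers were far lower at 24 h than at 4 h. They were picked with their values in view from the 14 measured. The median difference of the 14 in replicate 1 was -0.54, while LYZ, TFF3, TSPAN8, MUC13 and CLDN3 were higher at 24 h there. CEACAM6, a surface protein of intestinal epithelium, read 13.1 at 4 h and 9.65 at 24 h in replicate 1, 8.29 and 8.04 in replicate 2, and 8.85 and 8.24 in replicate 3. KRT20, a keratin of differentiated intestinal cells, read 14.9 and 12.7, 8.64 and 8.32, and 9.14 and 9.42 in the same order. Neither gene passed a test, and each value rests on 1 array.

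Circadian clock genes held 2 higher DETs among 17, with a median difference of 0.21. NR1D1, a repressor of the clock, was higher by 2.23 and DBP, a clock output factor, by 1.46.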
